A study of Mus musculus with 6 samples.

Results

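The non-basal epithelium of the uterus was compared between mice exposed at birth to diethylstilbestrol (DES), a synthetic estrogen, and mice given its corn oil vehicle (CO), across every gene with enough counts to be measured. The epithelial cells were those that the study placed in its own CO or DES epithelial clusters, after it had taken basal cells out of the DES set. They were 2583 of the 32387 cells of the CO library, in 15 clusters, and 4608 of the 16312 cells of the DES library, in 16 clusters. For each library the unique molecular identifiers (UMIs, 1 per captured RNA molecule) of these cells were summed gene by gene and scaled to counts per 1000000 UMIs of the sum (CPM). The 3103 genes, of 24077 in the table, that reached 50 CPM in at least 1 library are described here.

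All mice were of the outbred CD-1 strain and were 12 months old. They had received corn oil alone or DES in corn oil at 1 mg/kg/day by subcutaneous injection on days 1 to 5 after birth, and no other allele or agent separated the groups. The uterine horns of 2 CO mice, sampled in estrus, and of 4 DES mice, which stay in persistent estrus, were pooled into 1 single-cell library a side. Uterine sections of 2 other CO and 2 other DES mice, 1 mouse each, were measured on spatial slides and serve as the only replicated samples. Per the paper, a pathologist had examined frozen tissue for luminal and gland epithelium, and the DES tissue also for uterine adenocarcinoma. The selected blocks were then cored to the areas of interest. Section values therefore describe chosen areas and not the whole uterus. Since each side of the cell comparison is 1 pool, it has no replicate check, and ratios are given with 95% intervals that cover counting error only.

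The adult uterine epithelium is a single layer of columnar cells that lines the lumen and folds into glands. The glands secrete proteins that support implantation, and the luminal cells secrete antimicrobial and estrogen-driven proteins and take up or release fluid. Both arise from the Mullerian duct, whose fate as uterus or vagina is set by homeobox genes and by Wnt signals from stroma and epithelium, and neonatal DES is known to disturb that choice.

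The cells carried the label's markers in both libraries. All 5 epithelial markers (Epcam, Krt8, Krt18, Krt19 and Cdh1) stood above 50 CPM in CO and in DES, with sums of 4745 and 3197 CPM. The study had picked its epithelial cells by Krt18, so the level of that marker is no independent evidence. Depth was similar, at a median of 23458 UMIs and 4677 genes per CO cell and 24663.5 UMIs and 4965 genes per DES cell. Mitochondrially encoded genes took 10.2% of the CO and 12.2% of the DES UMIs. Markers of other cell types were unequal between the libraries, and the hemoglobin genes of red cells were not low. The 5 stromal markers summed to 35.6 CPM in CO and 4.49 CPM in DES, where Dpt was at 0, the 3 basal markers to 1.22 and 85.1 CPM, the 3 myeloid markers to 44.3 and 63.0 CPM, and the 2 hemoglobin genes to 1239 and 511 CPM, each past 50 CPM in both libraries. The 2 libraries shared 180 barcodes, among them 13 of the CO and 43 of the DES epithelial cells, and the counts of genes past 2-fold were the same without those cells.

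Most genes stood at a like level. Of the 3103 genes, 2652 (85.5%) differed by less than 2-fold, and the median log2 ratio of DES over CO was -0.03. In DES 142 genes (4.58%) were 2-fold or more higher and 309 (9.96%) were 2-fold or more lower. At 4-fold or more the counts were 42 higher (1.35%) and 101 lower (3.25%), and at 10-fold or more 14 higher and 32 lower. The most abundant genes at a like level were the mitochondrial mt-Co3, mt-Atp6, mt-Co1 and mt-Co2 and the actin-binding thymosin Tmsb4x, which stood at 10599 CPM in CO and 10920.5 CPM in DES. Of the 3103 genes, 373 reached 50 CPM in DES alone and 435 in CO alone, and such a gene was bound to be higher on that side. Counts over a gene list are therefore followed, where members passed in this way, by all of its measured members, counted where the whole 95% interval of the ratio lay past 2-fold. Over all 24077 genes this held for 1654 as higher in DES (6.87%) and 1593 as lower (6.62%), most of them under 50 CPM. The genes nearest the limit of 50 CPM were Cuedc1 and Maea inside it and Braf and Rmnd5a outside it.

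**Figure D1:**
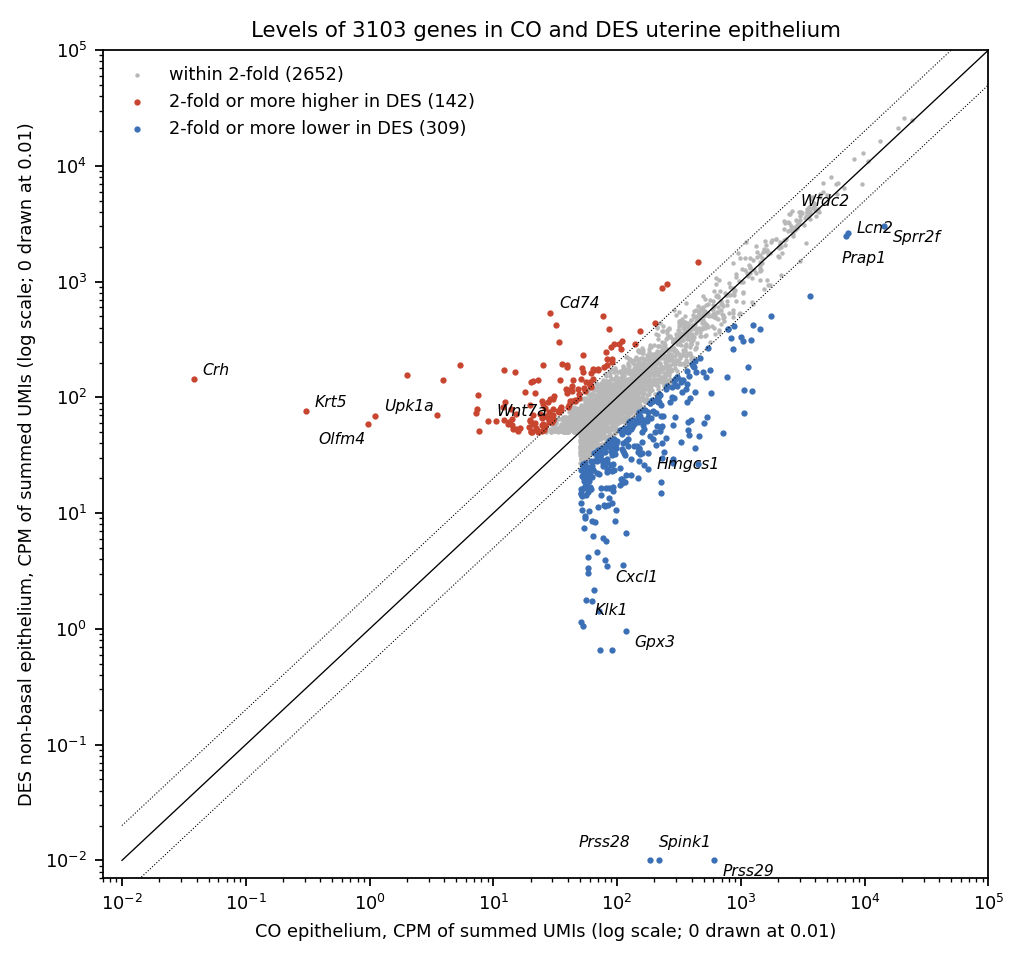
Level of each of the 3103 genes in the CO epithelium (x axis) and the DES non-basal epithelium (y axis), in CPM of summed UMIs on log axes; genes at 0 are drawn at 0.01, the solid line marks equal levels and the dotted lines 2-fold. The 142 genes in red are 2-fold or more higher in DES and the 309 in blue 2-fold or more lower, with Crh alone at the far left and Prss28, Spink1 and Prss29 on the floor.

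3 sets of values were set beside the ratio. The first was the range over the study's clusters, which divides the same UMIs that the ratio sums, so that it shows how even a difference was among the cells and is no separate evidence of it. Over all 3103 genes, 57 (1.84%) were higher in each of the 16 DES clusters than in any of the 15 CO clusters and 78 (2.51%) were lower in each. The other two did not enter the ratio. The second was the mesothelium of the same libraries (6866 CO and 3837 DES cells), the sheet that covers the uterus. Of the 2247 genes that reached 50 CPM there as well, 13 (0.579%) were 2-fold or more higher in DES mesothelium and 49 (2.18%) lower. The third was the 4 whole sections (9117099 to 12506177 UMIs each), tested with edgeR's quasi-likelihood test and Benjamini-Hochberg adjustment over 14098 genes, in which 376 (2.67%) were higher and 371 (2.63%) lower in DES at an adjusted p of 0.05. At an unadjusted edgeR p of 0.05 the counts over these 14098 genes were 1632 higher and 1806 lower. By DESeq2, at an adjusted p of 0.05, they were 822 and 969. In CPM both DES sections lay above both CO sections for 1392 (45.0%) of the 3096 genes at 50 CPM tested there. They lay below for 530 (17.1%), so that sections without overlap were common and are no result by themselves.

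A whole section mixes all cell types, so that in it fewer cells of a type and less RNA per cell cannot be told apart. Per the paper, 1 CO section had a substantial tissue fold and 1 DES section was limited in the clusters it gave. For most analyses the paper used 1 section per group. Which section numbers these are was not checked, and all sections are used here. The sections differed in makeup. The 3 muscle markers summed to 8381 and 9461 CPM in the CO sections and 2375 and 2682 CPM in the DES sections, and the basal markers to 3.36 and 160 CPM in CO against 9526 and 5644 CPM in DES. The 5 epithelial markers summed to 2938 and 1824 CPM in CO and to 3048 and 3283 CPM in DES. The part of these differences in any gene's section value was not tested. The calls also depended on which sections were kept. With all sections kept, 133 of the 3103 genes passed. Nearly all of these calls were lost when a DES section was left out, and they were kept when a CO section was. With 1 section left out, the spread within groups comes from the pair of the other group alone. Such refits therefore cannot show which sections the calls rest on. The 57 named genes that passed kept the sign of their fold change in every refit.

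Among the genes that were higher in DES, the peptide hormone gene Crh stood farthest apart. Crh (chromosome 3, 19693401 to 19695396, GRCm38 as for all gene positions), which encodes the hypothalamic stress peptide corticotropin-releasing hormone, was counted in 3 UMIs in the CO epithelium (0.0381 CPM) and in 23458 UMIs in the DES epithelium (143 CPM), a ratio of 3756 (95% interval 1285 to 18215). No CO cluster exceeded 0.51 CPM and every DES cluster stood above that, from 1.84 CPM in cluster 13 to 434 CPM in cluster 0. With every cell thinned to 3000 UMIs, which left out 21 CO and 49 DES cells, 0.039% of CO and 20.6% of DES epithelial cells held a Crh UMI. In DES mesothelial cells, which should lack the gene, the thinned share was 1.48% (medians 24663.5 and 12329 UMIs per cell), and the DES epithelial share lay above it. Whether the 1.84 CPM of DES cluster 13 exceeded this background was not tested. Neither CO section held a Crh UMI, while the DES sections held 126 and 797 UMIs (13.8 and 80.7 CPM). The sections did not overlap, but the DES sections differed among themselves and the change did not pass (edgeR adjusted p = 0.065).

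Upk1a, Olfm4, Lypd2, Lypd8 and Krt5, which are best known from other epithelia, were higher. Of the 7 mucins, trefoil factors and Lypd or uroplakin genes at 50 CPM, Upk1a, Lypd2 and Lypd8 were 2-fold or more higher, each having passed in DES alone, and Muc4 lower, and of all 33 measured 11 had the whole interval past 2-fold higher and 3 lower. Upk1a (chromosome 7, 30603092 to 30612847), a uroplakin of the bladder lining, stood at 1.1 CPM in CO and 69.2 CPM in DES (ratio 62.7, 50.8 to 78.3). Its lowest DES cluster (3.41 CPM) was above its highest CO cluster (2.73 CPM). In the sections Upk1a stood at 0.7996 and 0.906 CPM in CO and at 193 and 207 CPM in DES. The groups lay far apart with little spread within either, and Upk1a rose by a log2 fold change of 7.65 (SE 0.232, edgeR adjusted p = 0.00793). It is the one gene of the 133 that passed in the sections whichever section was left out.

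Olfm4 (chromosome 14, 79984081 to 80023139), a secreted glycoprotein known as a marker of intestinal crypt stem cells, stood at 0.964 CPM in CO and 58.6 CPM in DES (ratio 60.8, 48.5 to 77.2). The DES level was uneven. Olfm4 reached 685 CPM in DES cluster 5 (295 cells), which the study took for cancer cells, against a median of 10.8 CPM over the DES clusters. Its lowest DES cluster, at 0.788 CPM, fell within the CO range of 0 to 2.39 CPM. The study picked Olfm4 as a top gene of cluster 5 in these cells, so its direction and its peak there are no independent evidence. The sections stood at 0.400 and 2.18 CPM in CO and 1534 and 1340.1 CPM in DES. They did not overlap, and Olfm4 rose by a log2 fold change of 9.94 (SE 0.773, edgeR adjusted p = 0.0183). DES basal cells, which are not part of the epithelium described here, held 233 CPM.

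The Ly6 family members Lypd2 and Lypd8, small cell-surface proteins, were both higher. Lypd2 stood at 5.42 CPM in CO and 191 CPM in DES, with every DES cluster (45.4 to 839.9 CPM) above every CO cluster (0 to 23.99 CPM). Lypd2 stood at 4.64 and 1.45 CPM in the CO sections and 141 and 58 CPM in the DES sections, and rose there (log2 4.78, SE 0.718, edgeR adjusted p = 0.0356). Lypd8 stood at 2.02 CPM in CO and 156 CPM in DES, most of it in DES cluster 1 at 729 CPM against a DES cluster median of 39.6 CPM. Its section values of 1.12 and 0.363 CPM in CO and 5.81 and 66.3 CPM in DES did not overlap and did not pass (edgeR adjusted p = 0.105).

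Krt5, the keratin of basal layers, was the only one of the 11 stratified keratins listed to reach 50 CPM, and it did so in DES alone. Of the other 10, 3 had the whole interval past 2-fold higher and 3 lower. It stood at 0.305 CPM in CO and 75.9 CPM in DES, where cluster 5 held 645 CPM and the median cluster 23.7 CPM. DES basal cells held 1734 CPM of Krt5, and 4 of the 4608 DES cells met the study's rule for basal cells. The log2 ratio of Krt5 was 7.96 with and without those 4 cells and 7.15 without DES cluster 5, and the part of basal RNA in the other cells was not tested. In the sections Krt5 stood at 0.7996 and 93.4 CPM in CO and 5276 and 3562 CPM in DES (edgeR adjusted p = 0.142).

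Some transcription factors of the Mullerian tract were higher, but the list as a whole went both ways. Of the 27 measured, 11 reached 50 CPM, 6 of them in DES alone. Meis1, Meis2 and Msx2 were 2-fold or more higher, each having passed in DES alone, which fixed their direction. Of all 27, 4 had the whole interval past 2-fold higher and 7 lower. The 16 under 50 CPM went both ways, with the whole interval past 2-fold higher for 1 and lower for 7, all 7 at under 5 CPM in CO. The 7 were posterior Hox genes of the A and D clusters and Wt1. Stromal markers were also lower in DES, and the part of stromal RNA in these low counts was not tested. Msx2 (chromosome 13, 53466884 to 53473074), a homeobox gene of the developing tract, stood at 15 CPM in CO and 164 CPM in DES (ratio 10.9, 10.3 to 11.6). Its level was even among the DES clusters, at 122 to 202 CPM, all above the CO clusters at 0 to 32.6 CPM. In the sections Msx2 stood at 21.2 and 17.1 CPM in CO and 59.01 and 65.3 CPM in DES, and it rose (log2 1.49, SE 0.204, edgeR adjusted p = 0.0308). Of the 11 genes at 50 CPM, the related Msx1 was the one other called there, as lower.

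Meis1 and Meis2 are homeodomain partners of HOX proteins. Meis2 stood at 3.92 CPM in CO and 140.0 CPM in DES (ratio 35.7, 31.9 to 40.1) and Meis1 at 39.5 and 184 CPM, and every DES cluster of Meis1 (116 to 256 CPM) was above every CO cluster (25.4 to 94.5 CPM). For Meis2 the CO maximum of 14.7 CPM lay above the lowest DES cluster at 11.6 CPM. In the mesothelium both genes were level, where Meis2 stood at 248 CPM in CO and 268 CPM in DES and Meis1 at 73.03 and 68.8 CPM. In the sections Meis2 stood at 27.03 and 39.5 CPM in CO and 80.6 and 88.9 CPM in DES (log2 1.15, edgeR adjusted p = 0.0626). Meis1, at 59.3 and 78.1 against 83.9 and 82.4 CPM, had a log2 fold change of 0.07 (edgeR adjusted p = 0.868).

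2 other regulators, Scx and Runx1, had a call in the sections. Scx, a basic helix-loop-helix factor known from tendon, stood at 12.5 CPM in CO and 90.6 CPM in DES, and rose in the sections from 32.4 and 37.98 CPM to 112 and 88.4 CPM (log2 1.30, SE 0.186, edgeR adjusted p = 0.0328). Runx1, a Runt-domain factor best known from blood formation, stood at 24.9 CPM in CO and 57.8 CPM in DES and rose in the sections by a log2 fold change of 3.57 (SE 0.23, edgeR adjusted p = 0.0162), from 11.1 and 8.34 CPM to 134 and 134 CPM. For both, the CO and DES clusters overlapped.

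Among Wnt ligands and regulators at 50 CPM, Wnt4, Wnt7a and 1 enzyme that modifies the ligands were 2-fold or more higher, while the ligands Wnt5a and Wnt7b were not. Of 15 Wnt ligands measured only Wnt4 and Wnt7a reached 50 CPM, both in DES alone, which fixed their direction. Of all 15, Wnt7a and 1 ligand under 50 CPM had the whole interval past 2-fold higher and 0 lower. The ligands next in level, Wnt5a at 33.4 CPM in CO and 38.1 CPM in DES and Wnt7b at 34.8 and 26.3 CPM, were not 2-fold apart. Wnt7a (chromosome 6, 91363981 to 91411363), the epithelial ligand that patterns the tract, stood at 8.997 CPM in CO and 62.6 CPM in DES (ratio 6.96, 6.45 to 7.52). Its level was not low in all CO cells. CO cluster 12 (71 cells), which the study took for stem cells, held 81.5 CPM, within the DES range of 39.7 to 96.7 CPM, while the median CO cluster held 5.92 CPM. In the sections Wnt7a stood at 14.7 and 9.43 CPM in CO and 49.9 and 32.1 CPM in DES, without overlap, and did not pass (log2 1.54, edgeR adjusted p = 0.0716).

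Wnt4, a ligand needed to form the Mullerian duct, stood at 49.2 CPM in CO and 98.7 CPM in DES (ratio 2.01, 1.94 to 2.08), with wide overlap between clusters (4.41 to 82.5 CPM in CO, 26.6 to 181 CPM in DES). Its section values of 28.9 and 19.7 CPM in CO and 109 and 105 CPM in DES did not overlap, and Wnt4 rose (log2 1.93, SE 0.25, edgeR adjusted p = 0.0284). DES basal cells held 208 CPM. Among the 7 Wnt receptors and regulators at 50 CPM only Porcn, the enzyme that attaches the lipid Wnts need for secretion, was 2-fold or more higher, and it was 1 of 2 that passed in DES alone. The 29 under 50 CPM went both ways, with the whole interval past 2-fold higher for 4 and lower for 4. Among the higher was the receptor Fzd10, at 8.81 CPM in CO and 49.8 CPM in DES, which also rose in the sections from 5.92 and 7.25 CPM to 29.4 and 28.2 CPM (log2 1.92, SE 0.209, edgeR adjusted p = 0.0219). Porcn stood at 20.01 CPM in CO and 136 CPM in DES, with every DES cluster (from 66.3 CPM) above every CO cluster (up to 37.5 CPM). Ctnnb1, which encodes beta-catenin, stood at 612 and 493 CPM, and the scaffold gene Apc at 64.9 and 46.2 CPM.

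Wnt target genes went both ways. Of 18 measured, 4 had the whole interval past 2-fold higher, all under 50 CPM, and 2 past 2-fold lower. Axin2, the feedback inhibitor that Wnt signals induce, stood at 2.88 CPM in CO and 9.43 CPM in DES (ratio 3.27, 2.85 to 3.78) and the homeobox gene En2 at 2.73 and 9.94 CPM. In the sections Axin2, at 22.1 and 17.7 CPM in CO and 14.5 and 13.4 CPM in DES, had a log2 fold change of -0.73 (edgeR adjusted p = 0.135). Of the 4 targets at 50 CPM, Ccnd1 (cyclin D1) stood at 169 CPM in CO and 78.2 CPM in DES and Sox9, a factor of gland and progenitor cells, at 164 and 53.1 CPM, both 2-fold or more lower. Ccnd2, another cyclin, was the one of these 4 called in the sections, where it was higher. The 8 genes of the study's stem cell list summed to 165 CPM in CO and 781 CPM in DES, and most of the sum came from the 3 that reached 50 CPM (Ptn, Marcksl1 and Wnt7a, the last 2 in DES alone). Of the other 5, Axin2 and En2 were past 2-fold higher over the whole interval, and Aldh1a1, an aldehyde dehydrogenase, was past it lower at 6.55 CPM in CO and 2.64 CPM in DES. Lgr5 and Gstm7, the latter at 42.9 and 49.3 CPM, were past it in neither direction. The study took Aldh1a1, Lgr5 and Axin2 from earlier work and the other 5 from these cells, so the direction of those 5 is no independent evidence. CO cluster 12 held 765 CPM of the 3-gene sum, above the DES cluster median of 722 CPM, while the median CO cluster held 81.6 CPM. Across all genes, CO cluster 12 was the highest CO cluster for 503 of the 3103 genes and for 41 of the 142 that were 2-fold or more higher in DES.

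Marcksl1, an actin-binding substrate of protein kinase C, stood at 20.8 CPM in CO and 138 CPM in DES, and in the sections at 50.5 and 60.3 CPM in CO and 144 and 131 CPM in DES, where it rose (log2 1.11, SE 0.168, edgeR adjusted p = 0.036). Ptn, the secreted growth factor pleiotrophin, stood at 77.6 CPM in CO and 506 CPM in DES but at 99.2 and 114 against 93.8 and 84.6 CPM in the sections (log2 -0.47, edgeR adjusted p = 0.167). The mesothelium held 132 CPM of Ptn in CO and 104 CPM in DES. Rad51b, a homologous recombination gene on the study's cancer list, stood at 18.1 CPM in CO and 111 CPM in DES, reaching 532 CPM in DES cluster 5, and its mesothelial levels were 129 and 264 CPM. The study picked Rad51b too as a top gene of cluster 5 in these cells, so its direction and its peak there are no independent evidence. Plat, the tissue plasminogen activator, stood at 21.8 CPM in CO and 109 CPM in DES, with 573 CPM in CO cluster 12 alone and a CO cluster median of 5.84 CPM.

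**Figure D2:**
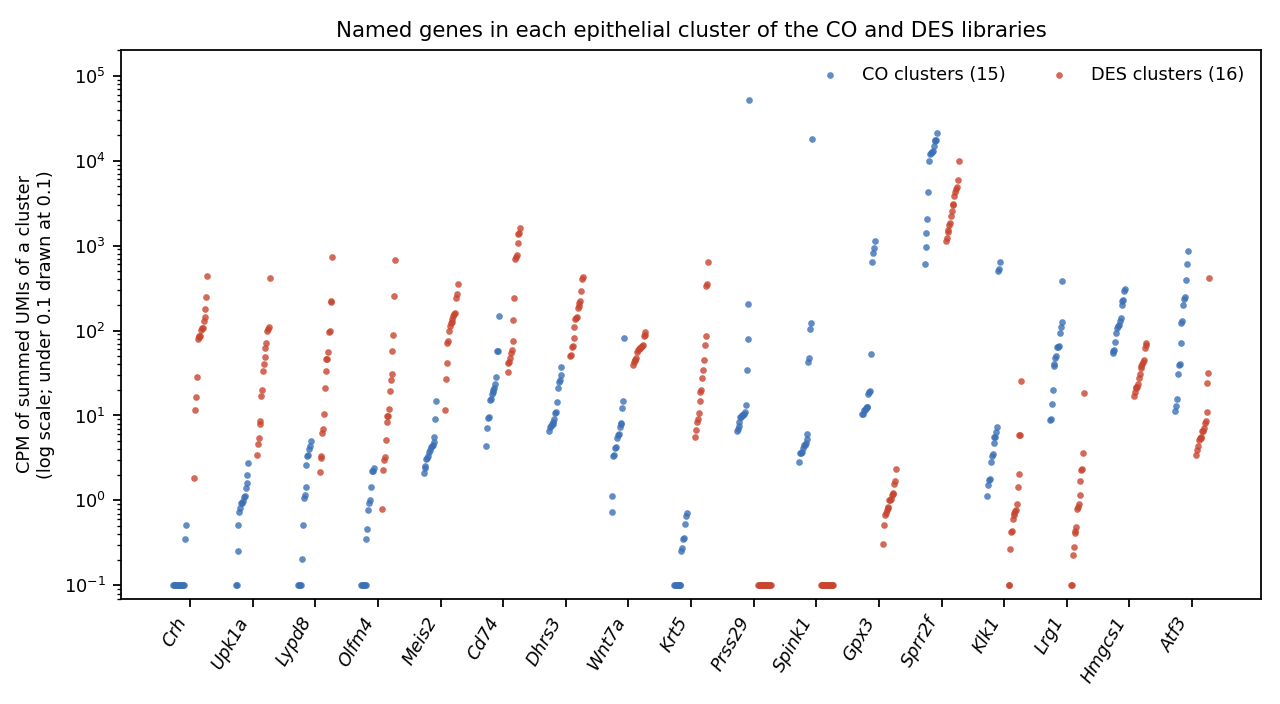
CPM of summed UMIs (log axis; under 0.1 drawn at 0.1) of 17 named genes in each of the 15 CO clusters (blue) and 16 DES clusters (red), 1 point per cluster, ordered by level within a gene. Every DES cluster of Crh, Upk1a, Krt5 and Dhrs3 is above every CO cluster, whereas Prss29 and Spink1 are high in 1 CO cluster and at 0 in every DES cluster.

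A retinoid enzyme, 2 clade B serpins and a lipid-cleaving enzyme were also higher. Dhrs3 (chromosome 4, 144892827 to 144928209), which reduces retinaldehyde back to retinol, stood at 12.2 CPM in CO and 173 CPM in DES (ratio 14.1, 13.3 to 15.1), and its lowest DES cluster (49.7 CPM) was above its highest CO cluster (37.5 CPM). The sections stood at 119.6 and 177 CPM in CO and 719.5 and 977 CPM in DES, and Dhrs3 rose (log2 2.32, SE 0.296, edgeR adjusted p = 0.0279). DES basal cells held 664 CPM. The retinoid and steroid list as a whole did not share its direction. Of 9 members at 50 CPM, 2 were 2-fold or more higher and 3 lower, and of the 29 under it 4 had the whole interval past 2-fold higher and 12 lower.

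The 20 serpins and secreted proteases at 50 CPM were more often lower, with 2 of them (Serpinb11 and Plat) 2-fold or more higher, 10 lower and a median log2 ratio of -1.07. Of all 53 measured, 8 had the whole interval past 2-fold higher and 18 lower. Serpinb11, an intracellular clade B serpin, stood at 33.9 CPM in CO and 301 CPM in DES, and rose in the sections from 23.3 and 12.4 CPM to 475 and 455 CPM (log2 4.49, SE 0.381, edgeR adjusted p = 0.0202). Serpinb7, of the same clade but not on that list, stood at 39.7 CPM in CO and 189 CPM in DES, and the sections, at 32.8 and 7.07 against 431 and 441 CPM, did not overlap (log2 4.23, edgeR adjusted p = 0.0522). Il33, an alarmin stored in the nucleus, stood at 48.7 CPM in CO and 118 CPM in DES, and rose in the sections from 25.3 and 23.6 CPM to 300.1 and 297 CPM (log2 3.40, SE 0.176, edgeR adjusted p = 0.0141), while DES basal cells held 679 CPM. Cells outside the non-basal epithelium thus also held Il33.

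Plb1, the membrane phospholipase B1, stood at 7.55 CPM in CO and 105 CPM in DES (ratio 13.9, 12.8 to 15.1), with every DES cluster (50.3 to 273 CPM) above every CO cluster (1.1 to 28.3 CPM). Plb1 stood at 7.92 and 6.34 CPM in the CO sections and 67.1 and 51.9 CPM in the DES sections, and rose (log2 2.84, SE 0.232, edgeR adjusted p = 0.0200). Its promoter is shown because every DES cluster of the gene was above every CO cluster and it held both motifs searched for AP-1 and Wnt-driven (TCF/LEF) factors. The RefSeq promoter (GRCm38.p6, chr5:32238834-32239133, plus strand, 250 bases before the start to 50 after it) is printed 5′ to 3′ with the motifs in capitals. Its start lies 6376 bases inside the gene as GENCODE M21 draws it, which begins at 32232708. The AP-1 motif TGANTCA begins 200 bases before the start, and the TCF/LEF motif CTTTGAT lies on the opposite strand at 216 bases.
Plb1: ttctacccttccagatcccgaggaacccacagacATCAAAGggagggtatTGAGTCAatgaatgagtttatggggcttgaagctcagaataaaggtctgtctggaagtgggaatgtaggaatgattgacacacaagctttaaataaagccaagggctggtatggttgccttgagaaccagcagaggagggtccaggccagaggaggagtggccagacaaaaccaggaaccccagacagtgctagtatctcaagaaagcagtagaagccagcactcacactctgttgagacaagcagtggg
Of all 27025 promoters of the same length, searched on both strands, 8.97% held the AP-1 motif and 4.29% the TCF/LEF motif. A match describes the letters and is not a binding site.

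Genes of MHC class II, which present peptides to helper T cells, were higher in DES. Cd74, H2-Aa and H2-Ab1 reached 50 CPM, all in DES alone. Of all 11 measured, 8 had the whole interval past 2-fold higher and 0 lower, and the 11 summed to 55.4 CPM in CO and 779 CPM in DES. Cd74, the invariant chain, stood at 28.8 CPM in CO and 541 CPM in DES (ratio 18.8, 18.01 to 19.6). It was patchy within DES, from 32.6 CPM in the lowest cluster to 1628 CPM in cluster 7 (215 cells), and CO cluster 5 reached 150.3 CPM. After thinning, 6.28% of CO and 40.1% of DES cells held a Cd74 UMI. In mesothelial cells the thinned shares were 9.71% in CO and 25.3% in DES (median 10436 and 12329 UMIs per cell). The epithelial share was below the mesothelial one in CO and above it in DES. Mesothelial cells were not shown to lack Cd74, so their share gives no background level. The chains H2-Aa and H2-Ab1 stood at 3.48 and 7.3 CPM in CO and 70.97 and 72.7 CPM in DES.

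The class II difference had the same direction in the mesothelium, where the sum of Cd74, H2-Aa and H2-Ab1 stood at 88.9 CPM in CO and 231 CPM in DES. Lymphocytes of the same libraries held 3669 and 3919 CPM of Cd74. In the epithelium the 4 lymphocyte markers summed to 10.95 CPM in CO and 4.69 CPM in DES, and the 3 myeloid markers to 44.3 and 63.0 CPM. The part of immune cell RNA in the difference was not tested further. The sections stood at 169.5 and 273 CPM of Cd74 in CO and 872 and 2317 CPM in DES, without overlap. None of the 3 class II genes passed by edgeR (Cd74 adjusted p = 0.0687), whereas 3 did at an unadjusted p of 0.05 and 3 by DESeq2. Over all 14098 genes tested, 1632 were higher at that unadjusted p and 822 by DESeq2. The myeloid markers summed to 192 and 430.2 CPM in the CO and 1663 and 856 CPM in the DES sections. Class I genes differed less, with a median log2 ratio of 0.66 over the 9 genes at 50 CPM. 1 of the 9 (Psmb9, a proteasome subunit) was past 2-fold, at 24.8 CPM in CO and 51.2 CPM in DES, but it had passed in DES alone and its interval (1.96 to 2.17) was not wholly past 2-fold, and of all 20 measured 1 had the whole interval past 2-fold higher and 0 lower.

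Among the genes that were lower in DES, the gland proteinases stood farthest apart. Prss29 (chromosome 17, 25318654 to 25322684) and Prss28 (chromosome 17, 25308646 to 25311876), neighbouring genes for serine proteinases that uterine glands secrete around implantation, and Spink1, a secreted trypsin inhibitor, had no UMI among the 164049137 UMIs of the DES epithelium. In CO they held 47446, 14582 and 17079 UMIs (602, 185 and 217 CPM). Against a floor of 3 UMIs over the DES cells, Prss29 was at least 32924-fold lower and Spink1 at least 11852-fold lower. Nearly all of the CO signal came from 1 small cluster. CO cluster 13 (62 cells, 2.40% of the CO epithelium), which the study took for mature glands, held 96.2% of the Prss29, 96.3% of the Prss28 and 93.0% of the Spink1 UMIs, and 51277 CPM of Prss29. The median CO cluster held 10.2 CPM, and CO mesothelial cells, which should lack the gene, 20.5 CPM.

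The sections, of other mice, did not show this difference, since the CO sections nearly lacked both proteinases too. Prss29 stood at 0.24 and 0.0906 CPM in the CO sections and at 0 in both DES sections, Prss28 was at 0 in all 4, and neither was tested. The 10 genes of the gland list described below summed to 3586 and 32261.5 CPM in the CO sections. Why these sections held so little of the 2 proteinases beside the CO pool was not tested. The promoters of the 2 neighbours are shown because both genes had no DES UMI.
Prss29: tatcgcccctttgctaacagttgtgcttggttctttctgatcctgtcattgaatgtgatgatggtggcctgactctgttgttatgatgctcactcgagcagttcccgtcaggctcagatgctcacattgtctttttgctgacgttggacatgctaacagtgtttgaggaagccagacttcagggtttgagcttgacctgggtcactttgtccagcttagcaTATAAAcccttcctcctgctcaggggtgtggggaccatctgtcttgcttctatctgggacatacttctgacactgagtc
Prss28: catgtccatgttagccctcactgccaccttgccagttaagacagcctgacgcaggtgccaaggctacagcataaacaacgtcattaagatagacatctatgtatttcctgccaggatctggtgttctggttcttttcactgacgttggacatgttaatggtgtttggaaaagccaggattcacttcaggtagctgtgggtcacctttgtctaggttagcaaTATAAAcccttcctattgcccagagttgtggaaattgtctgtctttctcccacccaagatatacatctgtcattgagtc
Both are RefSeq promoters of GRCm38.p6 on the plus strand (chr17:25318404-25318703 and chr17:25308396-25308695), with the TATA box TATAAA in capitals 29 bases before the start. The longest identical run was 15 bases, found 2 times, once around the TATA box and once as ctgacgttggacatg 112 and 113 bases before the starts of Prss28 and Prss29. A TATA box of these letters occurred on either strand in 15.7% of the 27025 promoters. Shares for the groups of higher and lower genes are not given, because fewer than 80% of each group had a promoter entry (28 of the 42 and 79 of the 101 past 4-fold).

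Gland genes were lower in DES as a list. Of 15 gland genes measured, 10 had the whole interval past 2-fold lower and 2, Foxa2 among them, higher. All 10 that reached 50 CPM were lower, 8 of them 2-fold or more, but 6 had passed in CO alone. Gpx3, a secreted glutathione peroxidase, stood at 117 CPM in CO and 0.957 CPM in DES, Klk1, tissue kallikrein, at 55.8 and 1.79 CPM, and Napsa, an aspartic proteinase, at 249 and 119 CPM. Glands were assigned by the study to a group of CO clusters and to no distinct DES cluster. The 4 CO gland clusters (3, 8, 13 and 14) held 417 cells, or 16.1% of the CO epithelium. Each of the 10 but Hif1a held at least 70.8% of its CO UMIs in these 4 clusters. Against the other CO clusters, Prss29, Prss28 and Spink1 could not be read, since these clusters held 20.6, 6.53 and 9.69 CPM and CO mesothelial cells, which should lack the genes, 20.5, 5.09 and 7.67 CPM. Klk1 was not read there either, at 3.15 CPM in these clusters, and its 38.7 CPM in the CO mesothelium gives no background level. The same holds for Gpx3, at 14.5 CPM in these clusters and 73.6 CPM in the CO mesothelium. The other 5 went both ways. Napsa then had a log2 ratio of 2.42, S100g, a calcium-binding protein, of 2.78, and Prap1, a secreted proline-rich protein, of 0.09. Sult1d1, a sulfotransferase, stood at -0.91 and Hif1a at -0.59. The study picked S100g, Hif1a, Prap1 and Wnt7b by their pattern in these cells, so their direction is no independent evidence.

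Without the gland clusters Gpx3 was not read, since no background level was at hand for its 14.5 CPM in the other CO clusters. In DES it stood at 0.957 CPM, with a maximum over clusters of 2.34 CPM. The CO minimum of 10.4 CPM lay in cluster 2, outside the glands, and was not read either. In the sections Gpx3 stood at 155 and 613 CPM in CO and 185 and 89.9 CPM in DES, which overlapped (edgeR adjusted p = 0.234). Klk1 was the one gland gene of 7 tested that fell in the sections, from 4.64 and 2.54 CPM to 0.219 and 0.304 CPM (log2 -3.92, SE 0.628, edgeR adjusted p = 0.0399). Foxa2, the gland transcription factor, was under 50 CPM in both libraries and went the other way. It stood at 7.39 CPM in CO and 16.2 CPM in DES, and at 4.48 and 3.44 CPM against 22.5 and 37.8 CPM in the sections, where it rose (log2 2.72, SE 0.373, edgeR adjusted p = 0.0308).

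Abcb1b and Aqp8, 2 transport genes with most of their CO level in gland clusters, were also lower, while Cldn10, a claudin that was high in the gland clusters too (588 CPM in CO cluster 3 and 1624 CPM in CO cluster 13), was higher, at 229 CPM in CO and 874 CPM in DES. Abcb1b, the P-glycoprotein efflux pump, stood at 91.3 CPM in CO, with 935 and 931 CPM in CO clusters 3 and 8, and at 0.652 CPM in DES. Aqp8, a water channel, stood at 52.8 CPM in CO, with 627 CPM in cluster 8, and 1.07 CPM in DES. The sections varied widely within CO for both, at 1.2 and 54.7 CPM of Abcb1b and 0.64 and 133 CPM of Aqp8, against 2.41 and 1.82 and 2.74 and 34.8 CPM in DES, and neither passed (edgeR adjusted p = 0.237 and 0.613). Of the 101 genes 4-fold or more lower, 24 were 2-fold or more higher in CO gland than in CO luminal clusters and 48 were 2-fold or more higher in luminal clusters, against 137 and 483 of all 3103.

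In CPM, the largest falls were of Sprr2f and 3 secretory or redox genes, Lcn2, Prap1 and Fam213a, followed by the nuclear RNA Malat1 at 9533 CPM in CO and 7039 CPM in DES. The largest rises were of mitochondrial genes (mt-Atp6 from 20695 to 25849 CPM, mt-Cytb, mt-Co2 and mt-Nd4) and of Tpt1, a growth-related translation gene, from 8226 to 11518 CPM, none of them 2-fold. Sprr2f (chromosome 3, 92365187 to 92366442), a small proline-rich protein of the cornified envelope that estrogen induces in the uterus, stood at 14407 CPM in CO and 3024 CPM in DES, the largest difference in CPM of all 3103 genes. Both libraries had wide ranges over clusters (615 to 21402 CPM in CO, 1134 to 9935 CPM in DES), which overlapped. The sections stood at 9636 and 3551 CPM in CO and 1119 and 2157 CPM in DES without overlap, and did not pass (log2 -2.22, edgeR adjusted p = 0.116). Its close relatives Sprr2a3 (1067 CPM in CO, 116 in DES) and Sprr2b (230.5 and 40.5 CPM) share sequence with it, so that reads may be split among the copies. The Sprr2f promoter (RefSeq, GRCm38.p6, chr3:92364937-92365236, plus strand) is shown as that of the gene with the largest difference and holds a TATA box 29 bases and an AP-1 motif 197 bases before the start, in capitals.
Sprr2f: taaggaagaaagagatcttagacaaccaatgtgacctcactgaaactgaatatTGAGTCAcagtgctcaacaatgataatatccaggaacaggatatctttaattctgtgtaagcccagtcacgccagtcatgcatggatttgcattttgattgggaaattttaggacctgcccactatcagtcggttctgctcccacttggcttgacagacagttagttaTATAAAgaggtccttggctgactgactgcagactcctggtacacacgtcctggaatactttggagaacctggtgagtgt

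Lcn2, which binds bacterial siderophores, stood at 7291 CPM in CO and 2657 CPM in DES, and Fam213a, a peroxiredoxin-like redox protein, at 3613 and 752 CPM. Fam213a fell in the sections from 2377 and 1151 CPM to 197 and 142 CPM (log2 -3.60, SE 0.45, edgeR adjusted p = 0.0276), whereas Lcn2 stood at 8116 and 884 against 1395 and 1321 CPM, with 1 CO section below both DES sections. Car2, a carbonic anhydrase, stood at 1211 CPM in CO and 312 CPM in DES and fell in the sections from 834 and 1110.4 CPM to 96.96 and 149 CPM (log2 -3.18, SE 0.321, edgeR adjusted p = 0.0212). Trpv6, a calcium channel, stood at 186 CPM in CO and 46.03 CPM in DES with overlap between clusters (40.4 CPM lowest in CO, 78.1 CPM highest in DES), and fell in the sections (log2 -1.75, SE 0.215, edgeR adjusted p = 0.0273).

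Cornified envelope genes of the Sprr2 family were lower in the cells, as was the simple keratin Krt7. Of 7 cornified envelope genes at 50 CPM, 4 were 4-fold or more lower (Sprr1a, Sprr2a3, Sprr2b and Sprr2f) and none was 2-fold higher. Their sum stood at 16829 CPM in CO and 3957 CPM in DES, and DES cluster 15 (54 cells) stood apart at 12911 CPM. Of the 22 members under 50 CPM, 2 had the whole interval past 2-fold higher and 7 lower. The sections went both ways. By edgeR 2 of the 7 rose there, Sprr1a and the calcium-binding S100a16, and 0 fell, while 1 was lower at an unadjusted p of 0.05 and 1 by DESeq2. Over all 14098 genes tested, 1806 were lower at that unadjusted p and 969 by DESeq2. Both DES sections were below both CO sections for Sprr2f. S100a16 stood at 105 CPM in CO and 147 CPM in DES cells, and at 164 and 154 against 587 and 521 CPM in the sections (log2 1.59, SE 0.171, edgeR adjusted p = 0.0219). Of the 4 simple keratins, Krt7 stood at 996 CPM in CO and 330.2 CPM in DES, Krt8 at 1549 and 867 CPM and Krt19 at 1229 and 662 CPM. Krt18, by which the study picked the cells, was level at 686 and 679 CPM, which is no independent evidence. Of the 3 simple keratins under 50 CPM, 1 had the whole interval past 2-fold higher and 2 lower. No simple keratin at 50 CPM passed in the sections by edgeR, by DESeq2 or at an unadjusted p of 0.05 (0 of 4 each). Of the study's 8 luminal genes, 5 were 2-fold or more lower, all 5 having passed in CO alone, and none was 2-fold higher, with Ifi203 at 106 CPM in CO and 17.6 CPM in DES and Lrrc26 at 73.6 and 122 CPM. The luminal list was chosen on the CO cells and is no independent evidence.

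Genes that respond to estrogen and progesterone were more often lower than higher, and none was 2-fold higher among those at 50 CPM. The estrogen receptor Esr1 stood at 227 CPM in CO and 218 CPM in DES and the progesterone receptor Pgr at 75.9 and 96.6 CPM. Ltf, lactoferrin, the classic estrogen-induced secretion of this epithelium, was level at 2327 and 2354 CPM. Of the 19 response genes at 50 CPM, 14 were lower, 7 of them 2-fold or more, and 5 were higher by less than 2-fold, up to a log2 ratio of 0.76, with a median of -0.85. 3 of the 19 had passed in CO alone and 1 in DES alone, and of all 30 measured 11 had the whole interval past 2-fold lower and 2 higher. Padi2, a citrullinating enzyme, stood at 533 CPM in CO and 67.3 CPM in DES, and Greb1, an estrogen receptor cofactor, at 60.1 and 16.7 CPM. C3, complement component 3, stood at 1730.2 CPM in CO and 934 CPM in DES and was the one gene of the 19 called in the sections, where it fell from 4657 and 4589 CPM to 461 and 685 CPM (log2 -3.21, SE 0.296, edgeR adjusted p = 0.021). The CO mice were in estrus and the DES mice in persistent estrus, so that cycle stage and exposure cannot be told apart.

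**Figure D3:**
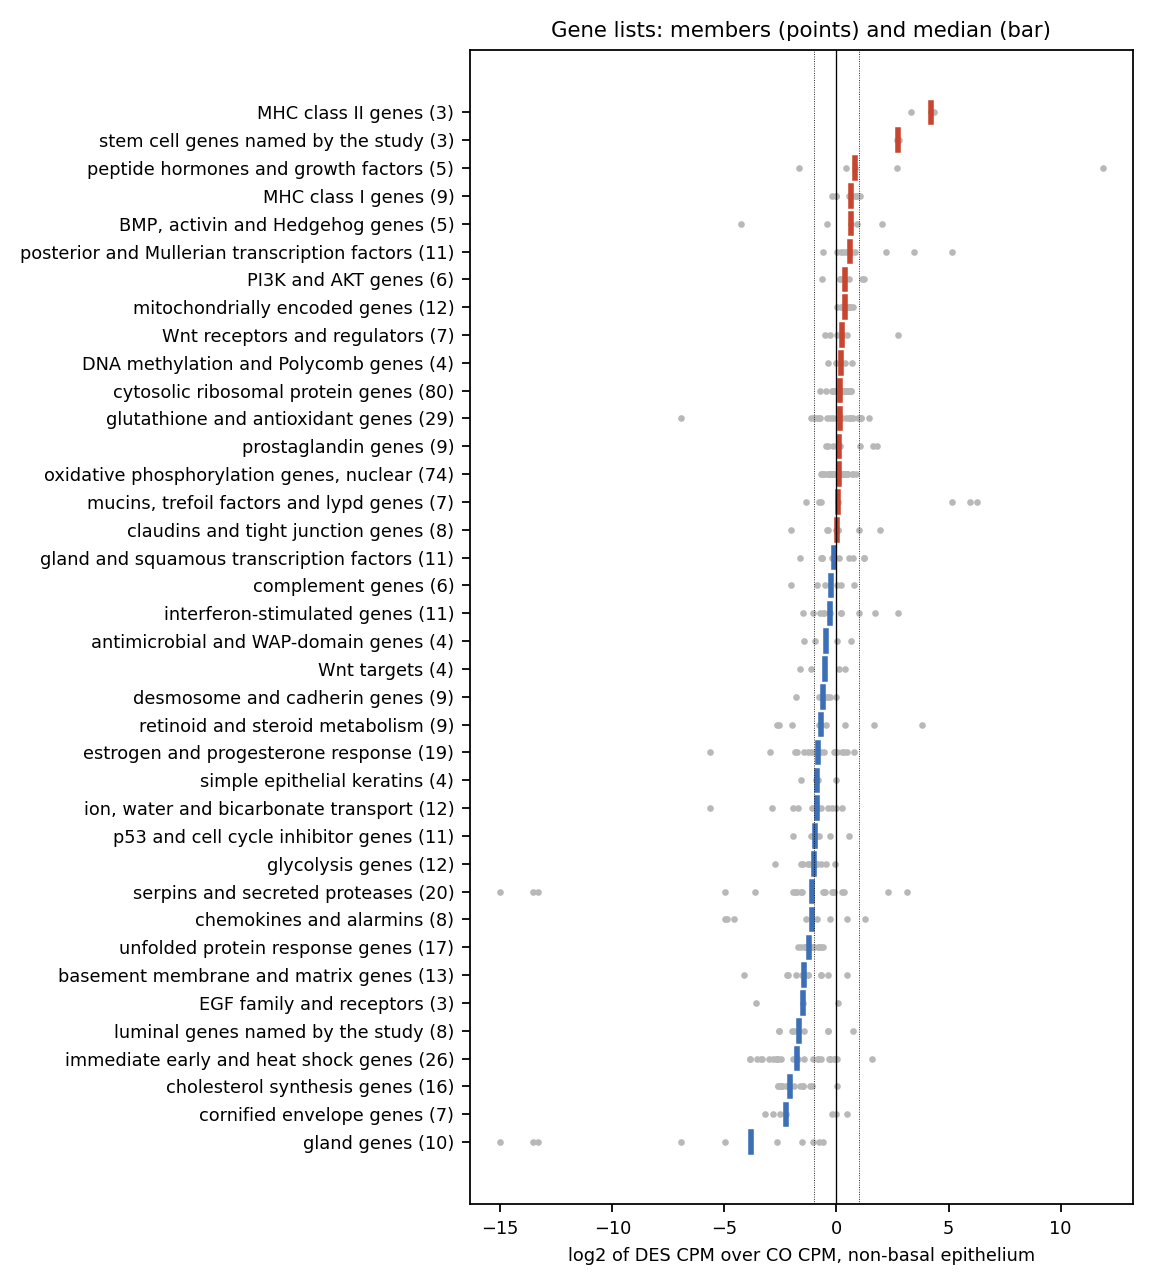
Log2 of DES over CO CPM in the non-basal epithelium for the members at 50 CPM (grey points) of each list with 3 or more of them, with the list median as a bar (red above 0, blue below); the number of members is in brackets, dotted lines mark 2-fold, and points near -15 and -13 are bounds set by a floor of 3 UMIs. The medians run from -3.80 for gland genes to 4.23 for MHC class II genes, with ribosomal and oxidative phosphorylation genes near 0; members that reached 50 CPM in 1 library alone could only lie on that side.

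Immediate early and heat shock genes, which cells switch on within minutes of a stimulus or of handling, were lower in most of the DES epithelium. Of all 32 measured, 21 had the whole interval past 2-fold lower and 1 (Hspb1) higher. The 26 at 50 CPM, 10 of them in CO alone, held 16 that were 2-fold or more lower and 1 higher, and their sum stood at 12906 CPM in CO and 6247 CPM in DES. Fos stood at 1133 CPM in CO and 183 CPM in DES, Egr1 at 424 and 36.5 CPM and Klf6 at 719 and 49.2 CPM, all transcription factors of this response. 1 DES cluster did not share the difference. DES cluster 9 (190 cells) held 17445 CPM of the sum, within the CO cluster range of 7147 to 20672 CPM, while the other DES clusters lay between 5305 and 6649 CPM. Fos stood at 2519 CPM in cluster 9 against a DES cluster median of 60.3 CPM. Cluster 9 was the highest DES cluster for 76 of the 309 genes that were 2-fold or more lower and for 261 of all 3103.

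The same list was lower in DES mesothelium, at 10985 CPM in CO and 6289 CPM in DES, and DES basal cells stood at 20740.3 CPM. In the sections, which were frozen rather than dissociated, 1 of 25 genes tested rose (Junb) and 1 fell (Ier3) by edgeR, and the median log2 fold change was 0.09. Ier3 stood at 1067 CPM in CO and 73.4 CPM in DES cells, and at 327 and 246 against 85.7 and 72.1 CPM in the sections (log2 -2.08, SE 0.227, edgeR adjusted p = 0.0219). Junb stood at 524 CPM in CO and 149 CPM in DES cells but at 45.9 and 48.04 against 126 and 113 CPM in the sections (log2 1.14, SE 0.155, edgeR adjusted p = 0.0306). The part of cell isolation in the difference between the libraries was not tested.

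Cholesterol synthesis was lower almost throughout. Over all 25 measured genes of sterol synthesis and uptake the sum stood at 2017 CPM in CO and 612 CPM in DES, and 17 had the whole interval past 2-fold lower and 0 higher. Of the 16 at 50 CPM, 14 of them in CO alone, 15 were 2-fold or more lower and 9 of them 4-fold or more, and only Ebp, a sterol isomerase, was level at 115 CPM in CO and 115 CPM in DES. The sum stood at 1824 CPM in CO and 516 CPM in DES. Hmgcs1, which makes a precursor of mevalonate, stood at 178 and 32.8 CPM and Cyp51, a sterol demethylase, at 117 and 21.3 CPM. The CO clusters (613 to 2689 CPM) and DES clusters (328 to 992 CPM) overlapped. The mesothelium held 390.5 CPM of the sum in CO and 203 CPM in DES. In the sections none of the 16 passed by edgeR, 1 was higher and 5 lower at an unadjusted p of 0.05, 4 were lower by DESeq2, and the median log2 fold change was -0.83. Over all 14098 genes tested, 1632 were higher and 1806 lower at that unadjusted p, and 969 were lower by DESeq2. The CO sections disagreed on Hmgcs1, at 59.8 and 17.9 CPM, against DES values of 40.7 and 29.05 CPM.

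Unfolded protein response and glycolysis genes were lower by a smaller step. Of all 25 measured members of the first list, 12 had the whole interval past 2-fold lower and 1 higher. The 17 at 50 CPM, 5 of them in CO alone, were all lower, 13 of them 2-fold or more, with sums of 6021 CPM in CO and 2586 CPM in DES, and the lowest CO cluster (4574 CPM) was above the highest DES cluster (3489 CPM). The chaperone Hspa5 stood at 856 CPM in CO and 264 CPM in DES and Calr, calreticulin, at 1247 and 422 CPM. The mesothelial sums were 5047 CPM in CO and 3639 CPM in DES. In the sections none of the 17 passed by edgeR or DESeq2 or at an unadjusted p of 0.05 (0 each), and the median log2 fold change was -0.04.

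All 12 glycolysis genes at 50 CPM, 2 of them in CO alone, were lower, 6 of them 2-fold or more, with sums of 4824 CPM in CO and 2424 CPM in DES. Of all 23 measured, 12 had the whole interval past 2-fold lower and 0 higher. The pyruvate kinase gene Pkm stood at 332 CPM in CO and 112 CPM in DES and Pgk1, phosphoglycerate kinase, at 366 and 131 CPM. In the sections Gpi1, glucose phosphate isomerase, was the 1 of 12 that fell by edgeR (log2 -0.91, SE 0.162, adjusted p = 0.0489), from 291 and 288 CPM to 189 and 167 CPM. By DESeq2 5 fell, against 969 of all 14098 genes tested. By contrast the 74 nuclear oxidative phosphorylation genes had a median log2 ratio of 0.11, the 80 cytosolic ribosomal protein genes of 0.17 and the 12 mitochondrially encoded genes of 0.37, and none of these 166 genes was past 2-fold.

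**Figure D4:**
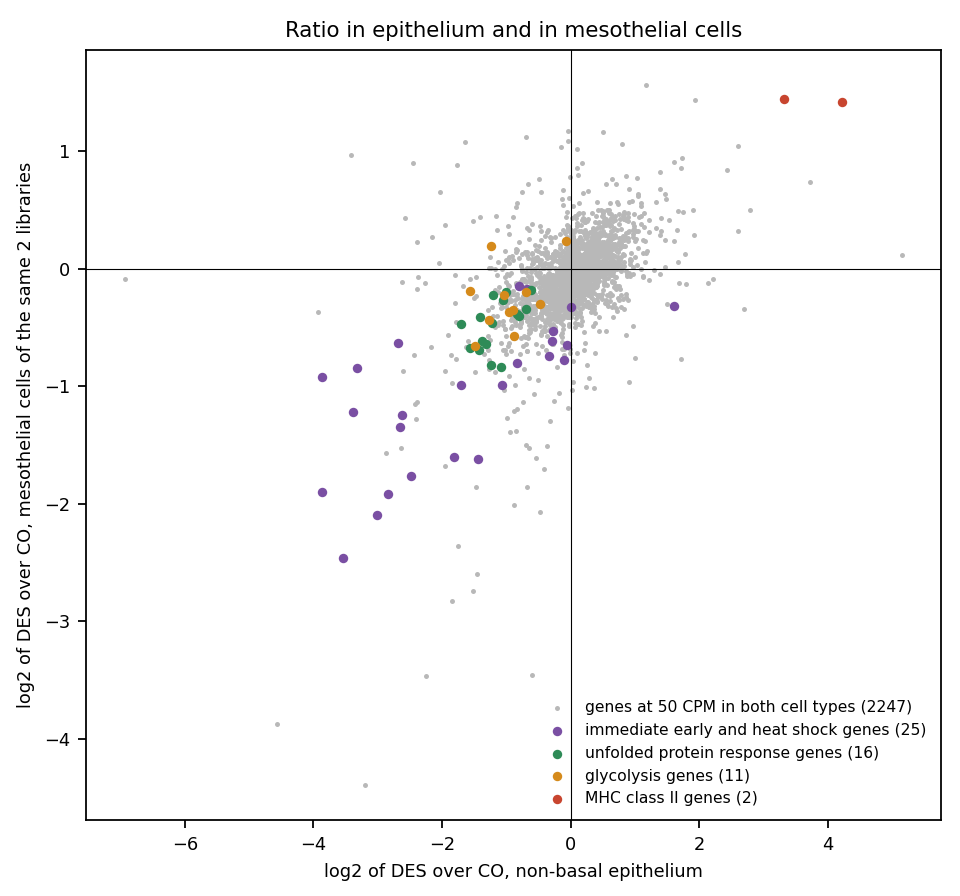
Log2 of DES over CO in the non-basal epithelium (x axis) and in the mesothelial cells of the same 2 libraries (y axis) for the 2247 genes at 50 CPM in both; 4 lists are coloured. Immediate early and heat shock genes (25, purple) and unfolded protein response genes (16, green) lie mostly at the lower left, and the 2 class II genes (red) at the upper right.

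Part of the differences was also seen in the mesothelial cells. Of the 101 genes 4-fold or more lower, 35 were measured in the mesothelium and 16 of these were 2-fold or more lower there, against 49 of 2247 (2.18%) over all genes, with a median log2 ratio of -0.87 against -0.08. Of the 42 genes 4-fold or more higher, 11 were measured and 3 were 2-fold or more higher, against 13 of 2247 (0.579%), with a median of 0.50. With every cell thinned to 3000 UMIs all 42 and all 101 were still 2-fold or more apart. The 10 gland genes at 50 CPM summed to 798 CPM in CO and 228 CPM in DES mesothelium, the direction of the epithelium. The part of epithelial RNA carried into the mesothelial cells was not tested. A difference between the 2 libraries in handling and one between the mice cannot be told apart here, since each library is 1 pool.

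Chemokine and matrix genes were more often lower, and PI3K and AKT genes were not. Of 28 PI3K and AKT genes, 6 reached 50 CPM, and Pik3r1, a regulatory subunit of the kinase, at 91.5 CPM in CO and 202 CPM in DES, and the kinase gene Sgk1, at 30.2 and 70.8 CPM, were 2-fold or more higher and none of the 6 lower. Sgk1 had passed in DES alone, and of all 28 measured 3 had the whole interval past 2-fold higher and 2 lower. Sgk1 rose in the sections from 62.9 and 74.9 CPM to 239 and 258 CPM (log2 1.65, SE 0.179, edgeR adjusted p = 0.0219), and Pik3r1 had a log2 fold change of 0.28 there (edgeR adjusted p = 0.505). The 5 peptide hormones and growth factors at 50 CPM had a median log2 ratio of 0.83 and the 5 BMP, activin and Hedgehog genes of 0.65, but over all measured members of these lists the whole interval was past 2-fold higher for 7 and 4 genes and lower for 13 and 9. Of the 16 EGF family genes and receptors measured, 2 were past it higher and 5 lower. Of 8 chemokine and alarmin genes at 50 CPM, 5 of them in CO alone, 4 were 2-fold or more lower and 1 (Il33) higher, and of all 39 measured 18 had the whole interval past 2-fold lower and 5 higher, with Cxcl1, which draws in neutrophils, at 82.4 CPM in CO and 3.48 CPM in DES, Cxcl2 at 65.2 and 2.18 CPM and the NF-kappaB inhibitor Tnfaip3 at 111 and 3.56 CPM. Cxcl1 was lower in the mesothelium as well, at 91.9 CPM in CO and 6.27 CPM in DES, and in the sections it stood at 1.52 and 0.272 CPM in CO and 8.01 and 2.23 CPM in DES (edgeR adjusted p = 0.243). Of 13 basement membrane and matrix genes at 50 CPM, 9 were 2-fold or more lower and none higher, with 7 passed in CO alone, and of all 35 measured 16 had the whole interval past 2-fold lower and 1 higher. The sections went both ways, where 2 of the 13 rose, Agrn (agrin) among them, and Dcn and Lum fell. Dcn, Lum and Sparc on that list are stromal products, and the stromal markers moved the same way. Lrg1, a secreted leucine-rich glycoprotein, stood at 71.5 CPM in CO and 1.44 CPM in DES, and Krt12, the corneal keratin, at 51.2 and 1.15 CPM.

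The largest ratios were then set against the sections as groups. All 42 genes 4-fold or more higher in the DES epithelium were tested in the sections, where 11 passed as higher and 0 as lower, against 57 and 76 of the 3096 genes tested. At an unadjusted p of 0.05 the counts were 26 higher and 3 lower, against 1632 and 1806 of all 14098 genes tested. By DESeq2 they were 23 and 1, against 822 and 969. Both DES sections were above both CO sections for 32 (76.2%), against 1392 (45.0%) of the 3096. The median log2 fold change of the 42 was 1.18, against -0.04 for all 3096. Of the 101 genes 4-fold or more lower, 95 were tested, of which 15 passed as lower and 4 as higher, with a median of -0.76. Both DES sections were below both CO sections for 34 (35.8%), against 530 (17.1%) of the 3096, and above them for 20 (21.1%). At an unadjusted p of 0.05, 33 were lower and 8 higher, against 1806 and 1632 of all 14098. By DESeq2 29 were lower and 6 higher, against 969 and 822. Upk1a alone held its call without either DES section, and Lrmp without DES section 1.

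4 genes were 4-fold or more lower in DES cells and rose in the sections. Sprr1a, a cornified envelope protein, stood at 377 CPM in CO and 52.3 CPM in DES epithelium, but at 121 and 88.7 CPM in the CO sections and 1409 and 1000.1 CPM in the DES sections (log2 3.31, SE 0.289, edgeR adjusted p = 0.0206). Cldn4, a tight junction claudin, stood at 203 and 50.2 CPM in the cells and at 18.6 and 34.9 against 163 and 116 CPM in the sections (log2 2.18, SE 0.35, edgeR adjusted p = 0.0399). DES basal cells held 542 CPM of Sprr1a and 301 CPM of Cldn4. The water channel Aqp4 stood at 62.6 and 8.47 CPM in the cells and at 29.3 and 26.5 against 171 and 176 CPM in the sections (log2 2.43, SE 0.175, edgeR adjusted p = 0.0177). Lrmp, a membrane protein of the endoplasmic reticulum, stood at 93.2 and 15.6 CPM in the cells and at 6.56 and 5.17 against 186 and 169.6 CPM in the sections (log2 4.71, SE 0.223, edgeR adjusted p = 0.0136). Basal cells did not hold these last 2 at a high level, with 4.82 CPM of Aqp4 and 2.69 CPM of Lrmp, and DES cluster 5 was their highest DES cluster, at 87.8 and 111 CPM.

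The reverse was seen for Lrrc31, Ifitm1 and Ckb, which were 2-fold or more higher in DES cells and fell in the sections. Ifitm1, an interferon-induced membrane protein, stood at 447 CPM in CO and 1468 CPM in DES epithelium and at 362 and 604 against 124 and 59.6 CPM in the sections (log2 -2.61, SE 0.435, edgeR adjusted p = 0.0431). Ckb, brain creatine kinase, stood at 25.9 and 68.7 CPM in the cells and at 1220.0 and 1671 against 515 and 469 CPM in the sections (log2 -1.76, SE 0.221, edgeR adjusted p = 0.0276). Lrrc31 stood at 55.5 and 113 CPM in the cells and at 6.4 and 11.96 against 1.54 and 0.709 CPM in the sections (log2 -3.23, SE 0.535, edgeR adjusted p = 0.0423). The part of cells other than epithelium in these section values was not tested.

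**Figure D5:**
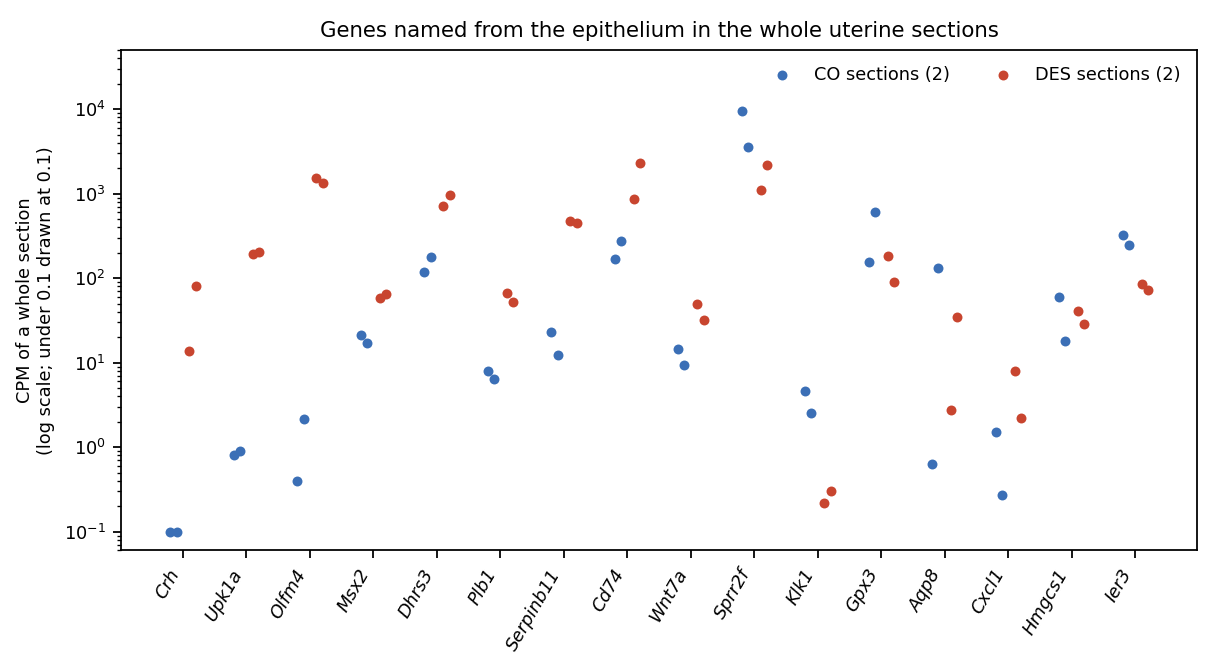
CPM (log axis; under 0.1 drawn at 0.1) of 16 genes named from the epithelium in the 2 CO (blue) and 2 DES (red) whole sections, 1 point per section. Both DES points lie above both CO points for Crh, Upk1a, Olfm4, Msx2, Dhrs3, Plb1, Serpinb11, Cd74, Wnt7a and Cxcl1 and below them for Sprr2f, Klk1 and Ier3, and the groups overlap for Gpx3, Aqp8 and Hmgcs1. Over the 3096 genes at 50 CPM tested, both DES sections lay above both CO sections for 45.0% and below them for 17.1%.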

How the data were processed

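Uteri of 12-month-old CD-1 mice were profiled as 1 pooled single-cell library a side and as spatial sections of 2 CO and 2 DES mice. Per the labels and methods, the authors aligned reads to mm10 with Cell Ranger 3.0.1 and Space Ranger 1.2.2, examined barcode swapping, removed doublets with scran and clustered cells with Seurat. The deposited values are raw UMI counts per gene, and the authors' metadata gave the cluster of each cell; 46 CO and 2 DES cells with a cluster were not in the count table and did not enter. Clustering and removal of doublets and basal cells by the authors set which cells entered the sums.

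Counts were summed over the cells of each library and scaled to CPM, and genes at 50 CPM or more in 1 library were kept. Ratios have exact 95% intervals of counts, and a sum of 0 was set to a floor of 3 UMIs over the group. All measured members of a list, with no CPM minimum, were also counted by whether that interval lay past 2-fold. Section counts (summed over spots, 1 sum per mouse) were tested with edgeR 4.0.16 (R 4.3.3; quasi-likelihood, TMM, Benjamini-Hochberg), with DESeq2 1.42.0 as an alternative. The scripts were tested on simulated data. Gene positions are those of GENCODE M21 (GRCm38), and promoters were matched to RefSeq GRCm38.p6.

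The genes and lists were chosen with earlier results of these data known. Named genes were the 12 largest and 12 smallest ratios, the 5 largest rises and falls in CPM, the 5 most abundant level genes, the genes next to the CPM minimum, genes that the study names, and in each list the 3 most abundant members and the largest ratio in each direction. Aqp4, Ckb, Cxcl1, Cxcl2, Cyp51, Egr1, Esr1, Gpi1, Greb1, Hsd11b1, Ier3, Junb, Lrrc31, Lum, Padi2, Pgk1, Pgr, Pkm, Plat, Runx1, Scx, Serpinb7, Sparc, Sprr1a, Sprr2b, Tns1 and Trpv6 were chosen after their values were seen. A few genes are not reported here. Per the paper, each single-cell sample is a pool of mice and each section is of 1 mouse. Alternatives to each step are given at the end.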

Additional observations from a re-analysis of the deposited data

Results flagged for a closer look

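Tns1, which encodes the focal adhesion protein tensin 1, moved in opposite directions in the epithelial and mesothelial cells of the same libraries. In the non-basal epithelium Tns1 stood at 69.1 CPM in CO and 22.1 CPM in DES, a log2 ratio of -1.65. In the mesothelium it stood at 28.8 CPM in CO and 60.6 CPM in DES, a log2 ratio of 1.07. The difference between the cell types was not tested, since each side is 1 library. The sections stood at 141 and 167 CPM in CO and 65.9 and 63.1 CPM in DES, and Tns1 fell there (log2 -1.46, edgeR adjusted p = 0.0232).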

How the results depend on the processing

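The counts of 142 higher and 309 lower genes stayed within 1.5 times under every cell alternative except the CPM minimum, which gave 66 and 175 at 100 CPM and 582 and 649 at 10 CPM. The median log2 ratio of all genes moved to 0.055 at 10 CPM, to 0.010 without the 20 most abundant genes of either library and to 0.020 without mitochondrially encoded genes. That last setting and the one without shared barcodes were chosen after seeing the data. Leaving out cells that Scrublet marked as doublets (14 CO and 3 DES epithelial cells) gave 142 and 311. All 42 genes 4-fold or more higher stayed 2-fold or more higher in every setting. The EGF family list turned to 0.049 at 10 CPM, and without the CO gland clusters Prap1 turned to 0.088, Napsa to 2.42 and Hsd11b1 to 1.73. S100g, lower by less than 2-fold in the main comparison, turned to 2.78 there. The gland list then had a median of 1.255 over the 4 members still at 50 CPM, Napsa among them through DES alone, but of -0.86 over all 10 of the main comparison (7 lower, of which 5 could not be read against those clusters, and 3 higher).

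In the sections the 376 higher and 371 lower calls became 822 and 969 with DESeq2. The replicate block gave 298 and 229, and the same-numbered sections did not deviate together (correlation -0.0249 over 14098 genes), so the numbers were not taken as pairs. Leaving out 1 section gave 3 to 1311 higher and 0 to 1508 lower calls, with 14 and 0 without DES section 1 (828 and 894 at an unadjusted p of 0.05) and 3 and 0 without DES section 2 (841 and 871). With a section left out, the lone one is assumed to vary like the other group. The log2 fold change then ranged from -2.05 to 1.97 for Lrg1, -0.69 to 1.30 for Tmem158, -1.48 to 2.30 for Msmo1, -0.65 to 0.66 for Hif1a, -1.84 to 2.15 for Cyp21a1 and -1.56 to 1.18 for Cyp51, positive in each case without CO section 1. The causes were not tested. No replicate supports the cell ratios, and section values mix all cell types.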
